A study of Mus musculus with 133 samples.

Results

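Hepatocytes of very old male mice (VOM) taken 52 h after partial hepatectomy (PH) were compared with hepatocytes of sham-operated mice of the same age, sex and time. The libraries were chosen by title: those beginning VOM_52h formed the PH group and those beginning VOM_Sh2d the sham group, and replicates marked X were left out because 3 unmarked ones remained. This gave 6 of the 133 libraries of the series, 3 per group, and every measured gene was examined. All mice were wild-type C57BL/6, and VOM mice were 100 weeks old. PH removed the left and median lobes, whereas sham mice received an abdominal incision that was sutured under inhalation anaesthesia. Hepatocytes were isolated by collagenase perfusion and slow centrifugation, a preparation that can retain other liver cells, and their RNA was counted at transcript 3′ ends by CEL-seq2, an RNA-seq method that tags each molecule with a unique molecular identifier (UMI). Young and very old reference comparisons, each with 3 PH and 3 sham libraries of its own, were also used: young males (YM, 11 to 14 weeks) at 52 h, very old females (VOF, 100 weeks) at 52 h, and VOM at 4 days. Male and female here follow the M and F of the titles, whereas the study's text expands YM and VOM as young and very old mice and names no sex. The study states 3 mice per group at each time point and lists the VOM and YM PH libraries used here. The labels do not tie the sham or VOF libraries to single mice, so the p-values are read as measuring the spread between libraries.

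Adult hepatocytes are quiescent and re-enter the cell cycle when liver mass is lost. Cytokines and growth factors first induce immediate early and acute phase genes, cyclins and the MCM helicase then carry the cells through DNA replication, and a later set of kinases, kinesins and chromosome proteins drives mitosis. In the same period the cells must keep up the functions that mark differentiated hepatocytes, such as drug oxidation, bile acid transport and urea synthesis, many of which are arranged in zones between the portal vein and the central vein.

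Total counts were 1207501 to 1995460 per PH library and 3584500 to 5311112 per sham library. In the sham libraries 36 genes, here called extreme genes, held 56.9 to 61.6% of all counts. Their highest sham level was over 4 times their highest level in 107 libraries of other groups (levels plus 2 CPM, where CPM is the count scaled to library size), a rule set after the values were seen. The last gene inside the rule stood at 4.54 times and the first outside at 3.99 times. Of the 36 genes, 16 exceeded 34069.6 counts in a sham library, the highest count that the authors' correction for used UMIs can return, and 35 were at 0 in PH libraries 1 and 2. All sham libraries and PH libraries 1 and 2 carried the label mix 9 and PH library 3 mix 22. Results were therefore also computed without the extreme genes, within mix 9, and against the 3 VOM sham libraries of 4 days (mixes 13 and 23), choices made after the data were seen, except mix 9 for the cell cycle scores and, with its marked library, for the count of all calls. In the last of these the time and the mix of the sham group both differ, and they cannot be told apart.

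Of 11047 genes tested, 1711 (15.5%) differed between PH and sham at 52 h, as judged by an adjusted p below 0.1 and a change of 2-fold or more. In the PH libraries 802 genes (7.26%) were higher and 909 (8.23%) lower. The groups did not overlap for 4947 genes (44.8%). Pearson's r of log2 levels was 0.957 to 0.975 among PH libraries, 0.962 to 0.976 among sham libraries and 0.835 to 0.879 between the groups. Against the 4-day sham 1646 genes were called, of which 646 were called in the same direction at 52 h (301 higher and 345 lower), which is 37.8% of the calls against the 52 h sham and 39.2% of those against the 4-day sham. Another 25 genes were called in opposite directions. Both comparisons use the same PH libraries, so the shared calls are no independent evidence.

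**Figure D1:**
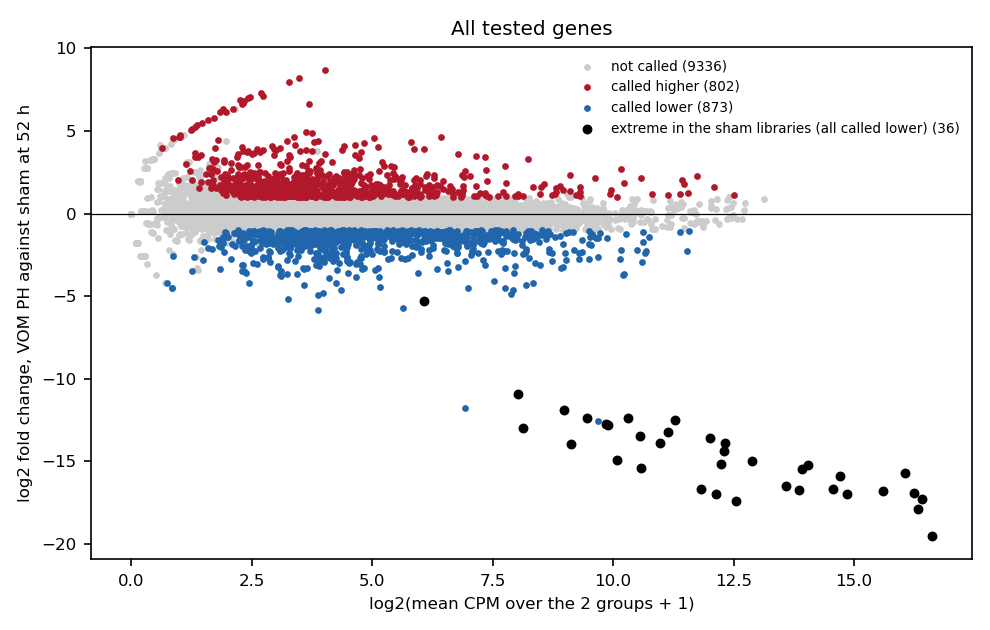
Each point is 1 of the 11047 genes tested. The horizontal axis gives log2 of the mean CPM over both groups plus 1, and the vertical axis the log2 fold change of VOM PH against VOM sham at 52 h. The 802 genes called higher, the 909 called lower and the 36 extreme genes are marked by colour. Most of the extreme genes, in black, lie apart at the lower right, but Prss53, at -5.31, lies nearer to the other genes.

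The 12 genes with the largest increase included Diaph3 and Cenpe. Diaph3, a formin that assembles actin filaments (ENSMUSG00000022021, chr14:86655367-87141235 in GRCm38), stood at 22.9, 17.6 and 20.6 CPM in PH libraries 1, 2 and 3 and at 0 in every sham library. Cenpe, the kinetochore motor that aligns chromosomes (ENSMUSG00000045328, chr3:135212537-135273611), stood at 20.4, 14.4 and 17.6 CPM in PH and likewise at 0 in sham. Against a floor of 3 counts over the sham group, Diaph3 was 39.5-fold and Cenpe 33.7-fold higher in PH (edgeR adjusted p = 8.55e-07 and 2.22e-06). These folds take the batch-adjusted zeros as counted zeros, so they are no lower bounds on the change. The 4-day sham held both transcripts, Diaph3 at 2.63, 4.30 and 3.597 CPM and Cenpe at 4.38, 2.87 and 2.398 CPM, and against it their log2 fold changes were 2.56 and 2.34. Psat1, an enzyme of serine synthesis (ENSMUSG00000024640, chr19:15904678-15947337), rose from 4.03, 2.61 and 1.67 CPM in sham to 39.5, 68.5 and 49.6 CPM in PH, without overlap (log2 fold change 4.26 ± 0.41, SE; edgeR adjusted p = 7.50e-08). Btg3, of the antiproliferative BTG family, measured 3.53, 2.61 and 1.67 CPM in sham and 21.04, 103 and 60.3 CPM in PH, with a log2 fold change of 4.59 ± 0.47 (edgeR adjusted p = 1.98e-07). Both genes were highest in PH library 2.

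The lectins Reg3b and Reg3g, secreted in tissue injury, were also in this group. Reg3b rose from 11.1, 3.91 and 4.58 to 329, 80.6 and 79.4 CPM and Reg3g from 1.01, 1.30 and 0 to 28.7, 7.66 and 11.5 CPM, with log2 fold changes of 4.61 ± 0.61 and 4.39 ± 0.78 (edgeR adjusted p = 1.53e-05 and 0.00065). PH library 1 was highest for both. Fabp4, a fatty acid carrier of adipocytes and macrophages, measured 1.51, 1.30 and 0.833 CPM in sham and 17.2, 32.9 and 22.9 CPM in PH (log2 fold change 4.31 ± 0.55, edgeR adjusted p = 3.77e-06). Igdcc4, a membrane protein of the immunoglobulin family, had 1 count in all over the sham libraries, and its PH to sham ratio was 148 (95% counting interval 26.01 to 5873). The remaining 4 of the 12 were Cidec (described with the lipid genes), the membrane protein gene Tm4sf20, 3930402G23Rik and Gm7334, with log2 fold changes of 4.41, 4.94, 4.63 and 4.34. All 12 were also called higher against the 4-day sham and within mix 9.

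The 12 genes with the largest decrease were all extreme genes. Cyp2a5, the coumarin hydroxylase (ENSMUSG00000005547, chr7:26835305-26843548), measured 205607, 283421 and 114215 CPM in sham and 0, 0 and 0.764 CPM in PH, whereas the 4-day sham held 21.03, 12.9 and 15.6 CPM. Pde4a, a cAMP phosphodiesterase, measured 145537, 159430.0 and 216159 CPM in sham, 0, 0 and 3.82 CPM in PH and 2.63, 2.87 and 3.597 CPM in the 4-day sham. The sham levels of these genes at 52 h thus stood far above those of the 4-day sham. Against the 4-day sham Cyp2a5 was still called lower (log2 fold change -5.99, edgeR adjusted p = 0.00445) but Pde4a was not (-1.52, edgeR adjusted p = 0.214). The other 10 were 9030619P08Rik, Ncmap, Cyp2a4, Rdm1, Kcna2, Zfp398, Gm16731, Afmid, Slc2a5 and H2-T23. No fold change is read from any of them.

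Without the extreme genes 11012 genes were tested, 763 were higher (6.93%) and 909 lower (8.25%), and the 12 largest decreases were of liver enzymes and a few less known genes. Car3, a carbonic anhydrase abundant in male hepatocytes (ENSMUSG00000027559, chr3:14863512-14872523), fell from 583, 315 and 455 CPM in sham to 14.7, 13.5 and 18.3 CPM in PH, a log2 fold change of -4.88 ± 0.49 (edgeR adjusted p = 1.42e-07). Mme, the membrane peptidase neprilysin, fell from 28.7, 23.5 and 27.5 to 1.91, 0 and 0.764 CPM. Gsta4, a glutathione transferase that detoxifies lipid aldehydes, fell from 311, 202 and 213 to 11.5, 8.11 and 13.7 CPM. Every PH library lay below every sham library for these 3 genes, and the 4-day sham gave the same call for each (log2 fold changes -6.55, -4.34 and -3.95). Acad10 and Hsd3b3, a mitochondrial dehydrogenase and a steroid dehydrogenase, fell by log2 fold changes of -4.66 and -4.49, Lrit2 by -5.20 and Dct by -5.82. Gm20463 was at 1705, 1689.8 and 1559.9 CPM in sham and 0, 0 and 0.764 CPM in PH but at 1.75, 0 and 3.597 CPM in the 4-day sham, and Keg1, Hsd3b5 and Gsta2 are described with their groups.

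**Figure D2:**
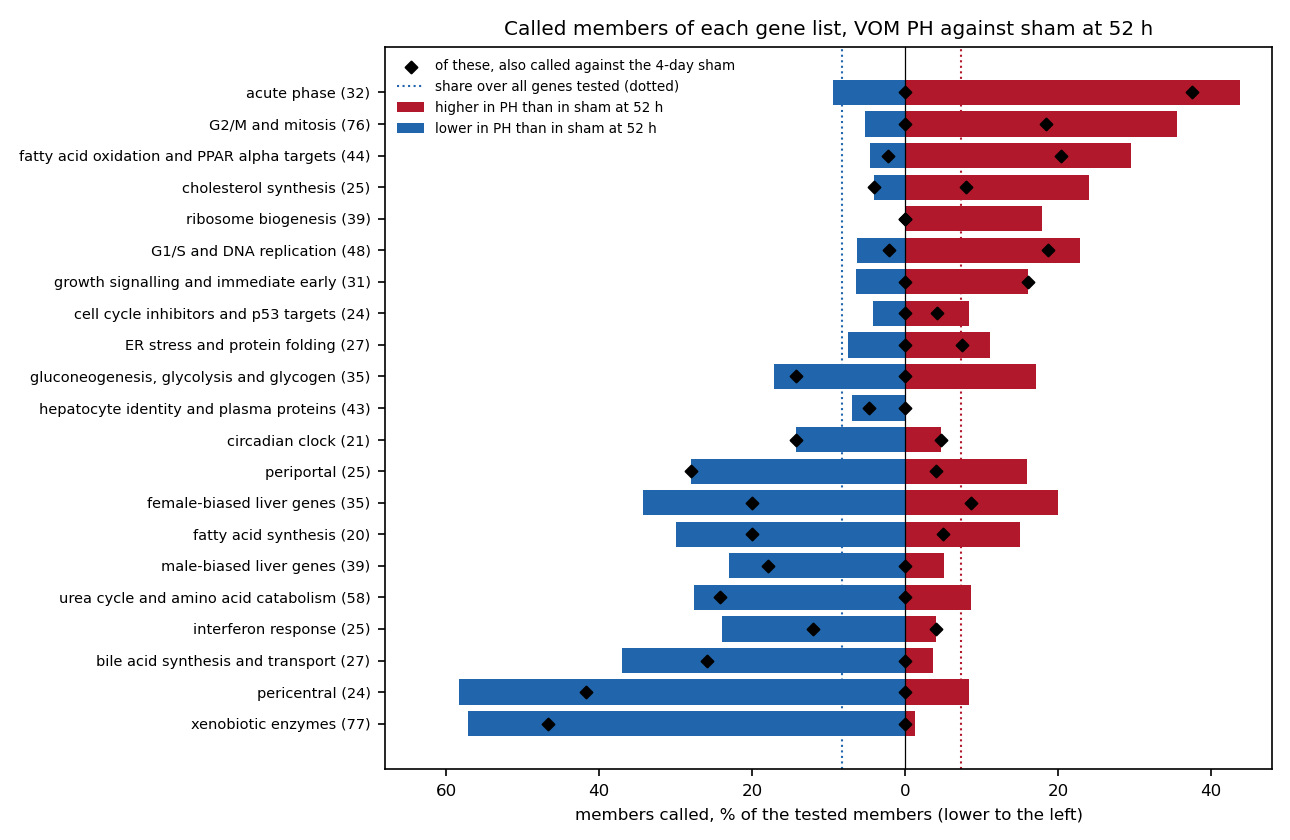
Bars give, for each pathway list (number of tested members in parentheses), the percentage of tested members called higher (to the right) or lower (to the left) in VOM PH against sham at 52 h. Diamonds give the part of these members also called against the 4-day sham, and dotted lines the shares over all 11047 genes, 7.26% higher and 8.23% lower; the pericentral genes and xenobiotic enzymes reach furthest to the left (14 of 24 and 44 of 77) and, among these lists, the acute phase genes furthest to the right (14 of 32).

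DNA replication genes rose in part. Of 48 tested members of the G1/S list 11 rose and 3 fell, with a median log2 fold change of 0.56 against 0.05 over all genes, and 22 did not overlap between groups, a share near the 44.8% of all genes. Mcm5, Mcm6 and Mcm2 encode subunits of the replicative helicase. Mcm5 measured 0, 3.91 and 4.58 CPM in sham and 37.0, 12.6 and 25.2 CPM in PH (log2 fold change 3.05 ± 0.55, edgeR adjusted p = 0.000228). Mcm6 rose from 9.07, 3.91 and 5.41 to 33.8, 18.5 and 33.6 CPM and Mcm2 from 8.56, 7.17 and 9.99 to 28.05, 16.7 and 19.1 CPM, with log2 fold changes of 2.15 ± 0.44 and 1.27 ± 0.26 (edgeR adjusted p = 0.000813 and 0.000767). All PH libraries exceeded all sham libraries for these helicase genes. Ccne1, the cyclin that activates CDK2 at the start of S phase, measured 0, 0 and 3.75 CPM in sham and 15.3, 17.6 and 16.04 CPM in PH (log2 fold change 3.41 ± 0.53, edgeR adjusted p = 4.53e-05).

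Other genes of replication moved little or downward. Pcna, the sliding clamp of DNA polymerase, measured 78.6, 63.8 and 57.9 CPM in sham and 63.1, 63.5 and 71.8 CPM in PH, overlapping ranges with a log2 fold change of -0.02 ± 0.17 (edgeR adjusted p = 0.962). Mcm3 was not called (0.38 ± 0.27, edgeR adjusted p = 0.433). Mcm10, which helps load the polymerases, fell from 93.7, 70.4 and 99.9 to 20.4, 7.66 and 11.5 CPM, and Tk1, thymidine kinase of the salvage pathway, fell from 29.7, 31.3 and 17.1 to 12.1, 5.41 and 8.40 CPM (edgeR adjusted p = 3.41e-07 and 0.00378). Mcm10 was called lower against the 4-day sham too (-2.00), whereas Tk1 was not (-0.59). Atad2, a chromatin ATPase, was called lower at -1.11 ± 0.49 (edgeR adjusted p = 0.0953) with overlapping groups, a call lost without PH library 2 or 3 or sham library 2 or 3, and its log2 fold change was 0.64 against the 4-day sham. Hells, a chromatin remodeller, rose on the strength of PH library 3, at 0.637, 0.901 and 27.5 CPM, against 0, 1.30 and 0.416 CPM in sham, and was not called without that library. E2f1, the transcription factor of the G1/S genes, was at 76.1, 75.6 and 74.1 CPM in sham and 48.4, 32.0 and 51.2 CPM in PH, no overlap and under 2-fold apart, but at 7.89, 7.17 and 13.2 CPM in the 4-day sham, against which it was called higher (2.195). With the 4-day sham 20 members of the list were higher and 1 lower, 9 of the 20 shared.

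Part of the mitotic genes rose, several of them from 0 in some or all sham libraries. Of 76 tested G2/M members 27 rose and 4 fell, the median log2 fold change was 1.29, and 27 did not overlap, a smaller share than the 44.8% of all genes. Aurka, the kinase that matures centrosomes, measured 0, 14.98 and 13.7 CPM in sham and 75.2, 57.7 and 82.5 CPM in PH (log2 fold change 2.90 ± 0.58, edgeR adjusted p = 0.000644). Tpx2, which activates it on the spindle, rose from 0, 0 and 2.08 to 17.2, 13.1 and 12.98 CPM. Kif20a and Racgap1, parts of the cytokinesis machinery, rose from 0, 0 and 5.41 to 41.4, 31.5 and 43.5 CPM and from 0, 3.26 and 0 to 13.4, 12.6 and 12.98 CPM. For these 4 genes every PH library lay above every sham library (edgeR adjusted p for the last 3 = 0.00017, 0.000725 and 4.04e-05). Aurka, Tpx2 and Kif20a were also called against the 4-day sham and Racgap1 was not (1.01, edgeR adjusted p = 0.141).

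The proliferation markers rose from a sham level that was already measurable. Mki67, the antigen Ki-67 of cycling cells, went from 19.6, 11.7 and 22.1 CPM in sham to 86.7, 30.2 and 68.0 CPM in PH (log2 fold change 1.73 ± 0.35, edgeR adjusted p = 0.000735). Cdk1, the mitotic kinase, measured 37.3, 25.4 and 36.6 and 106, 45.5 and 102 CPM in the same order, with a log2 fold change of 1.32 ± 0.34 (edgeR adjusted p = 0.00515). Top2a, which untangles sister chromatids, measured 53.9, 31.9 and 23.7 and 138, 37.8 and 168 CPM (1.63 ± 0.43, edgeR adjusted p = 0.00679). PH library 2 was the lowest PH library for all 3 genes, and for Top2a it lay within the sham range. Plk1, the polo-like kinase, measured 57.4, 58.6 and 0 CPM in sham and 279, 0 and 296 CPM in PH, so that 1 library of each group was at 0, and its call (edgeR adjusted p = 0.0938) was lost without any of 5 of the 6 libraries. Ccna2 and Birc5, cyclin A2 and survivin, were not called (0.997 ± 0.69 and 0.91 ± 0.71, edgeR adjusted p = 0.302 and 0.366), and each was at 0 in a PH library. Foxm1, the transcription factor of the mitotic genes, was called with PH values of 0.637, 0 and 12.98 CPM against 0 in sham, a call that was lost without PH library 3 or sham library 3.

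Of the 4 G2/M members that were lower, Sgo2a, a protector of centromere cohesion, was an extreme gene at 129288, 129382 and 152422 CPM in sham. Spc24, a kinetochore subunit, fell from 33.2, 14.3 and 20.8 to 6.37, 5.41 and 4.58 CPM without overlap (edgeR adjusted p = 6.46e-05), and Ckap2 and Cenpn were called lower with overlapping groups (-2.52 ± 0.85 and -1.87 ± 0.76), calls lost without PH library 1 or 2 or sham library 1 for Ckap2 and without PH library 2 or sham library 1 or 3 for Cenpn. None of these 4 was called lower against the 4-day sham. In that comparison 29 members were higher and 0 lower, of which 14 were shared. Within mix 9 the list held 14 higher and 3 lower members, and without PH library 2 it held 31 and 2.

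Many mitotic promoters carry a cell cycle homology region (CHR), a short element bound by the complexes that repress these genes in quiescence and activate them in the dividing cell, often near a CCAAT box. In RefSeq promoter windows of GRCm38.p6 (250 bases before to 50 after the annotated start), TTTGAA or TTCGAA occurred on either strand in 45 of the 62 G2/M members with a window (72.6%), against 1353 of 7896 tested genes with one (17.1%). The share was 15 of 22 (68.2%) among members that rose and 30 of 40 (75.0%) among the others. CCAAT occurred in 46 of 62 (74.2%) against 43.5% of all genes, and both together in 40 of 62 (64.5%) against 7.13%. The patterns were counted separately and may overlap, and a match is a description of the sequence, not a binding site. Stretches of 30 bases from 6 members that rose are shown 5′ to 3′ on the strand of the gene, with the CHR match in capitals, to show a match in genes whose sham and PH levels are given above or below. They were picked for holding TTTGAA on the strand of the gene, whereas other members that rose hold TTCGAA (Cdc25b and Sgo1) or a match on the other strand (Kif22 and Kifc1). Some of the genes shown hold further matches. Top2a also holds TTCGAA and a match on the other strand, and Cdk1 and Mki67 hold another TTTGAA.
Aurka (chr2:172370521-172370550, minus strand): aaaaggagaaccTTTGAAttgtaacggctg
Cdk1 (chr10:69352910-69352939, minus strand): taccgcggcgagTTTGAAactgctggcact
Mki67 (chr7:135716460-135716489, minus strand): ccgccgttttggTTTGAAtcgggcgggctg
Prc1 (chr7:80294434-80294463, plus strand): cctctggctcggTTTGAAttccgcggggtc
Racgap1 (chr15:99651634-99651663, minus strand): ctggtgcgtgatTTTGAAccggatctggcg
Top2a (chr11:99024351-99024380, minus strand): ctattggtccatTTTGAAgattctcccgcc

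Prc1, which bundles the microtubules of the spindle midzone, measured 19.1, 26.7 and 36.2 CPM in sham and 122, 49.1 and 124 CPM in PH (log2 fold change 1.81 ± 0.37, edgeR adjusted p = 0.00105).

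The mean of log2(CPM + 4) over each list served as a score per library. The G1/S score was 4.34 ± 0.17 (SD, n = 3) in PH and 4.06 ± 0.04 in sham, a difference of 0.28 (exact permutation test, two-sided, p = 0.1, the smallest that 3 against 3 libraries allow). The G2/M score was 3.86 ± 0.44 in PH and 3.46 ± 0.08 in sham, a difference of 0.40 (exact permutation p = 0.3), with PH library 2 at 3.43 inside the sham range of 3.36 to 3.51. Sgo2a weighs on the sham score: without the extreme genes the difference was 0.62 (exact permutation p = 0.1), and without PH library 3 it was 0.19. Against the 4-day sham the G1/S and G2/M differences were 0.77 and 0.98.

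**Figure D3:**
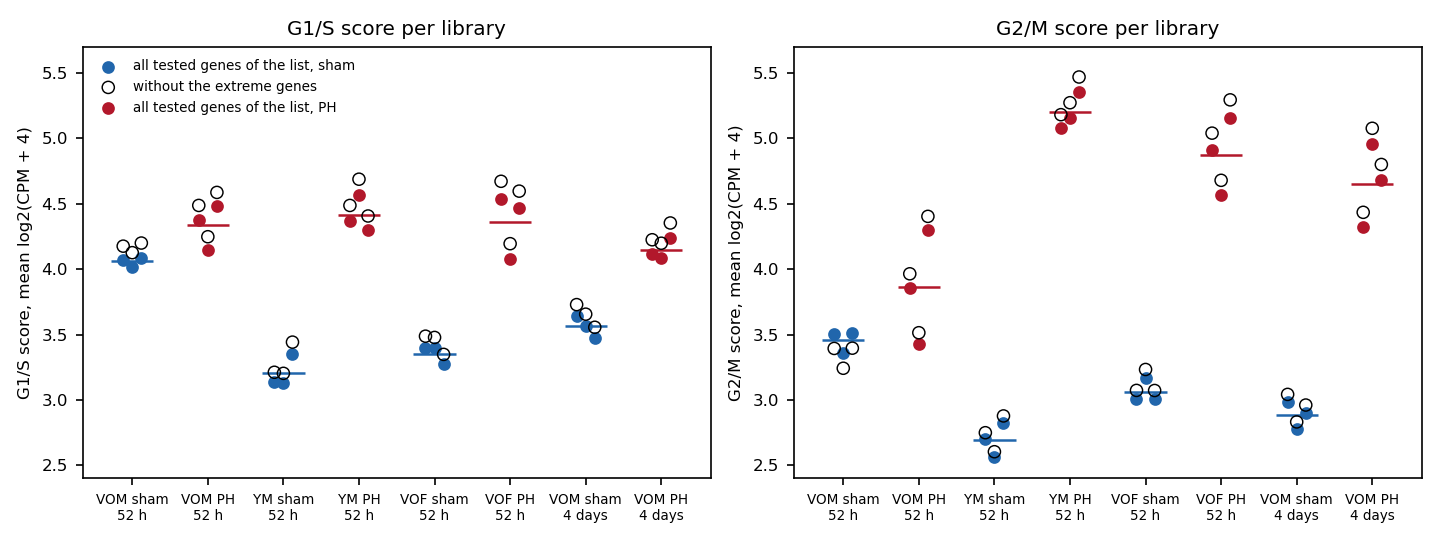
G1/S score (left) and G2/M score (right), as mean log2(CPM + 4) over the tested genes of each list, for each of 3 libraries in 8 groups; filled points use all genes, open circles leave out the extreme genes, and lines mark group means of the filled points. The VOM sham libraries at 52 h stand above the other sham groups, at a mean G2/M score of 3.46 against 2.70 to 3.06. The VOM PH libraries at 52 h stand below the other PH groups in the G2/M score, at 3.86 against 4.65 to 5.20, but not in the G1/S score, at 4.34 against 4.15 to 4.41.

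Cdkn1a, which encodes the CDK inhibitor p21, was the clearest riser among cell cycle inhibitors and p53 targets. It measured 34.8, 20.2 and 78.7 CPM in sham and 179.8, 384 and 290.2 CPM in PH, without overlap (log2 fold change 2.64 ± 0.34, edgeR adjusted p = 4.75e-06; 1.96 against the 4-day sham). Of the 24 tested members Sesn2, a stress-induced inhibitor of mTORC1, also rose (1.08 ± 0.31, edgeR adjusted p = 0.0107), though not without PH library 2 or sham library 3, and Cdkn2d, the inhibitor p19, fell from 23.2, 31.3 and 20.4 to 10.2, 9.01 and 9.16 CPM. The Cdkn2d change was in the other direction against the 4-day sham (0.95, not called). The list median was 0.10. The share of members that rose was near the 7.26% of all genes, and the share that fell was below the 8.23% of all genes.

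A few growth signalling and immediate early genes rose and fewer fell. Igfbp1, the secreted IGF-binding protein of the regenerating liver, rose from 45.8, 39.7 and 75.8 CPM in sham to 214, 823 and 594 CPM in PH (log2 fold change 3.32 ± 0.46, edgeR adjusted p = 1.12e-05). Ier3, an early response gene, went from 20.1, 20.8 and 9.57 to 96.9, 357 and 147 CPM (3.62 ± 0.44, edgeR adjusted p = 1.68e-06). Tnfrsf12a, the TWEAK receptor, went from 0.504, 1.30 and 0.416 to 5.10, 15.3 and 11.5 CPM (3.88 ± 0.69, edgeR adjusted p = 0.000191). PH library 2 was highest and PH library 1 lowest for all 3, and the groups did not overlap. Klf6 rose as well (1.46), and Ccnd1, cyclin D1, was called at 1.02 ± 0.38 (edgeR adjusted p = 0.0438) although PH library 2 was low at 203, 31.1 and 173 CPM against 78.1, 67.1 and 52.5 CPM in sham, a call lost without either of the other PH libraries or sham library 3. The transcription factors Fos and Atf3 were lower, Fos at 134, 54.1 and 114 CPM in PH against 310.3, 324 and 208 CPM in sham and Atf3 at 177, 59.0 and 129 against 448.3, 444 and 184 CPM. The Atf3 call was lost without PH library 2 or 3 or sham library 1 or 2. Neither was called against the 4-day sham (-0.45 and 0.41). In all 5 of 31 tested members rose and 2 fell, the latter a share near the 8.23% of all genes that were lower.

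Acute phase genes had the highest share of risers among the lists of hepatocyte function. Of 32 tested members 14 rose and 3 fell, the latter a share near the 8.23% of all genes. The median log2 fold change was 0.99, and 29 members did not overlap, against 44.8% of all genes. Apcs, serum amyloid P, rose from 138, 236 and 175 CPM in sham to 803, 992 and 939 CPM in PH (log2 fold change 2.32 ± 0.34, edgeR adjusted p = 2.13e-05). Saa1 and Saa2, the inducible serum amyloid A proteins, rose from 1588, 3462 and 1339.7 to 5141, 7166 and 7534 CPM and from 766, 2181.7 and 594 to 4224, 6295 and 6592 CPM (edgeR adjusted p = 0.00476 and 0.00295). Lcn2, the iron-sequestering lipocalin, rose from 992, 1795 and 1007 to 3198, 4993 and 4985 CPM (1.80 ± 0.41, edgeR adjusted p = 0.00194). The metal-binding metallothioneins rose likewise, Mt1 from 929, 1325 and 1036 to 2759, 5254 and 5294 CPM and Mt2 from 386, 757 and 518 to 1429, 2895 and 3147 CPM, with log2 fold changes of 2.02 ± 0.23 and 2.17 ± 0.29. For all 6 genes the groups did not overlap, and all 6 were called against the 4-day sham and within mix 9.

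The other acute phase risers were Cd14, Il1rn, Fgg, Serpina3m, Serpina3n and the orosomucoids Orm1, Orm2 and Orm3. Il1rn, the interleukin-1 receptor antagonist, went from 2.52, 8.47 and 5.41 to 26.1, 27.9 and 24.4 CPM (2.30 ± 0.31, edgeR adjusted p = 8.78e-06), and Cd14, the lipopolysaccharide co-receptor, from 1.01, 0.651 and 1.25 to 12.1, 28.4 and 13.7 CPM (4.12 ± 0.61, edgeR adjusted p = 2.37e-05). Saa4, the constitutive member of the serum amyloid A family, fell from 730.4, 1391 and 1147 to 303, 84.7 and 273 CPM, C4b from 253, 447 and 353 to 173, 119.8 and 141 CPM, and the chemokine Cxcl1 was called lower (-1.19 ± 0.51, edgeR adjusted p = 0.0862). The Cxcl1 call was lost without any 1 library other than PH library 1. None of these 3 was called against the 4-day sham (0.23, -0.16 and 0.34). Against that sham 15 members were higher and 1 lower, 12 of the 15 shared. Stat3, which relays interleukin-6, was at 103, 104 and 108 CPM in sham and 119, 199.6 and 152 CPM in PH, above sham in every library but under 2-fold (0.58 ± 0.18, edgeR adjusted p = 0.0202).

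Some genes of fatty acid oxidation and lipid droplets rose. Of 44 tested members 13 rose and 2 fell, with a median of 0.59. The share that fell was below the 8.23% of all genes. Groups did not overlap for 27 members, against 44.8% of all genes. Acot2, a mitochondrial acyl-CoA thioesterase, went from 1.01, 1.30 and 1.67 CPM in sham to 17.2, 22.5 and 18.3 CPM in PH (log2 fold change 3.79 ± 0.39, edgeR adjusted p = 2.08e-07). Pdk4, the kinase that shuts off pyruvate dehydrogenase, went from 1.51, 2.61 and 3.33 to 10.8, 55.4 and 45.1 CPM (3.86 ± 0.56, edgeR adjusted p = 2.00e-05), and Cyp4a31, a fatty acid omega-hydroxylase, from 24.2, 20.8 and 24.6 to 332, 221 and 232 CPM (3.48 ± 0.31, edgeR adjusted p = 2.02e-08). The lipid droplet coat protein Plin2 rose from 238, 244 and 370.1 to 733, 1966 and 1169 CPM and Cidec, which fuses droplets, from 1.01, 1.30 and 1.25 to 15.3, 40.1 and 22.9 CPM (edgeR adjusted p = 6.72e-06 and 5.41e-06). These 5 genes had no overlap between groups and were called against the 4-day sham as well. Fgf21, a fasting hormone of the liver, was called at 2.43 ± 0.81 (edgeR adjusted p = 0.0307) with PH libraries at 43.98, 8.11 and 8.40 CPM and sham libraries at 3.53, 1.95 and 4.996 CPM, and it was not called without PH library 1.

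The remaining risers were Acot1, Acot3, Acot4, Cyp4a14, Ehhadh and Plin5. Central members of the pathway were under the 2-fold limit or uncalled. Cpt1a, the carnitine transferase that admits fatty acids to mitochondria, stood at 185, 192 and 243 CPM in sham and 376, 424 and 321 CPM in PH, without overlap (0.85 ± 0.18, edgeR adjusted p = 0.00121). Ppara, the nuclear receptor of the pathway, stood at 22.2, 31.3 and 28.3 and 26.8, 19.4 and 30.5 CPM (-0.11 ± 0.22, edgeR adjusted p = 0.747). Acaa1b, a peroxisomal thiolase, and Fitm1 fell (-1.32 and -1.31). The 4-day sham gave 14 higher and 1 lower, 9 of the 14 shared.

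Lipid synthesis was mixed. Of 25 tested cholesterol synthesis genes 6 rose, among them Hsd17b7 (1.98), Msmo1 (1.201), Idi1 (1.11) and Sqle (1.06), and Tm7sf2 fell (-1.06). The Sqle call was lost without sham library 1 or 3 and the Tm7sf2 call without PH library 3. The 4-day sham gave 2 higher and 3 lower members. Of 20 tested fatty acid synthesis genes 3 rose and 6 fell. Srebf1, the transcription factor of lipogenesis, fell from 67.5, 48.9 and 40.4 to 5.74, 11.3 and 11.5 CPM (-2.44 ± 0.26, edgeR adjusted p = 3.61e-07), Thrsp from 32.2, 40.4 and 8.33 to 1.91, 4.51 and 3.05 CPM (-2.95) and Acss2, which makes acetyl-CoA from acetate, from 62.5, 56.7 and 37.5 to 18.5, 12.6 and 14.5 CPM (-1.78). These 3 also fell against the 4-day sham (-2.56, -5.89 and -2.74). Elovl5, a fatty acid elongase, rose (1.57 ± 0.21, edgeR adjusted p = 7.25e-06) and had the opposite sign against the 4-day sham (-0.32, not called).

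Drug and xenobiotic enzymes fell more often than they rose by a wide margin. Of 77 tested members 44 were lower and 1, Cyp2d9, higher (1.01 ± 0.29, edgeR adjusted p = 0.0103), and the Cyp2d9 call was lost in 9 of 20 settings, among them without PH library 2 or sham library 2 or 3 and without the extreme genes. The median log2 fold change was -1.51, and 59 members did not overlap between groups, against 44.8% of all genes. Without the extreme genes, 4 of which belong to the list, 40 of 73 were lower, and against the 4-day sham 40 of 77 were lower, 36 of them shared. Cyp1a2, the caffeine oxidase, fell from 931, 968 and 734 CPM in sham to 109.6, 50.5 and 105 CPM in PH (log2 fold change -3.33 ± 0.33, edgeR adjusted p = 8.76e-08). Cyp3a11, the main steroid and drug hydroxylase, fell from 2918, 1556 and 2068 to 156, 102 and 238 CPM (-3.73 ± 0.49, edgeR adjusted p = 5.89e-06), and Cyp2c29 from 3769.5, 2206 and 2249.7 to 421, 197 and 454 CPM (-2.94 ± 0.30, edgeR adjusted p = 1.97e-07). Gsta2, a glutathione transferase, fell from 46.8, 14.98 and 23.7 to 0, 1.35 and 1.53 CPM. PH library 2 was lowest for the 3 cytochromes, and every PH library lay below every sham library for all 4. The regulators Nr1i2 (PXR) and Nr1i3 (CAR), which switch many of these genes on, were not called (0.24 ± 0.18 and 0.23 ± 0.25, edgeR adjusted p = 0.323 and 0.543). Enzymes of this kind have near-identical copies, such as Cyp2a4 and Cyp2a5 or Gsta1 and Gsta2, between which 3′ reads can be split, and their single values are uncertain for that reason, as are those of Saa1 and Saa2.

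Bile acid genes fell as well, 10 of 27 tested, with 1 higher and a median of -0.79. Slco1a1, a sinusoidal uptake transporter, fell from 2085, 1971 and 2556 CPM in sham to 203, 109.9 and 216 CPM in PH (log2 fold change -3.65 ± 0.43, edgeR adjusted p = 1.07e-06). Abcb11, the bile salt export pump, fell from 1108, 965 and 1101 to 257, 86.5 and 256 CPM (-2.41 ± 0.26, edgeR adjusted p = 4.29e-07), and Cyp27a1, which starts the acidic synthesis pathway, from 219.6, 152 and 165 to 45.3, 16.7 and 43.5 CPM (-2.39 ± 0.30, edgeR adjusted p = 2.57e-06). The groups did not overlap for any of these genes, and all were called lower against the 4-day sham. Cyp7a1, the rate-limiting enzyme of the classic pathway, was at 25.2, 7.17 and 7.49 CPM in sham and 13.4, 1.35 and 6.87 CPM in PH and was not called (-0.997 ± 0.77, edgeR adjusted p = 0.36), but was lower against the 4-day sham (-4.13). Cyp8b1, which sets the cholic acid share, rose (1.24 ± 0.44, edgeR adjusted p = 0.0362) and fell against the 4-day sham (-1.41); it was not called without sham library 2.

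**Figure D4:**
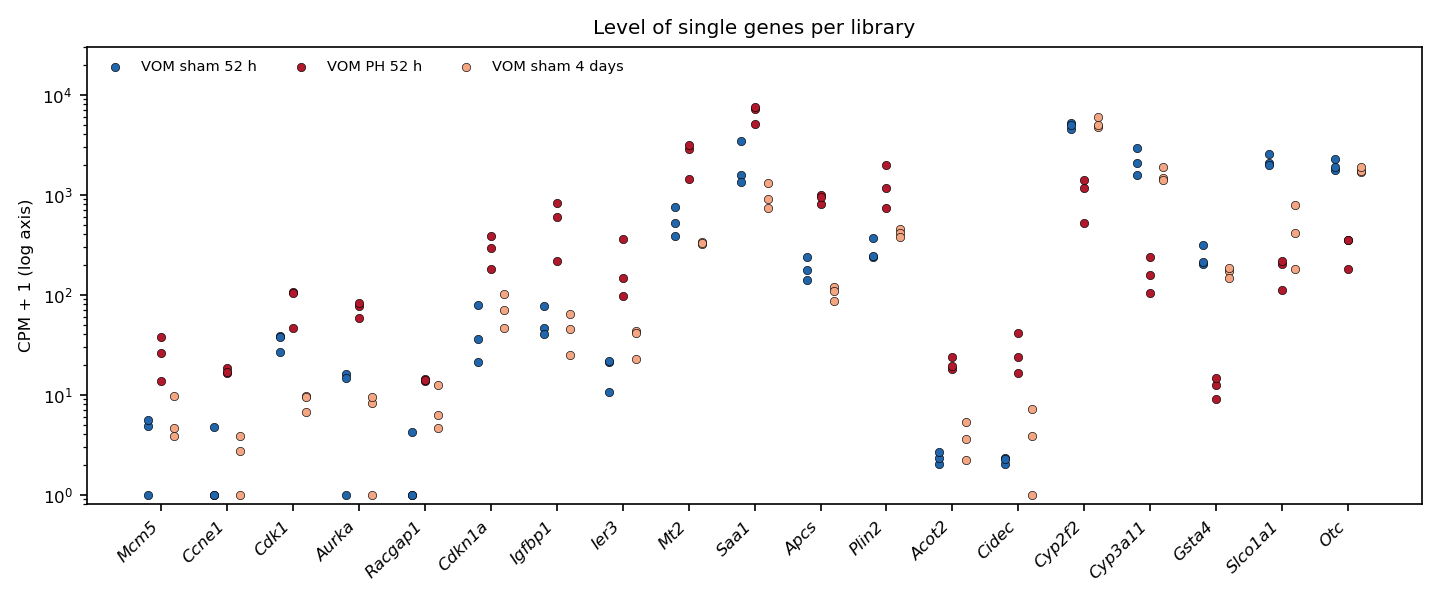
CPM plus 1 on a log axis for 19 genes in the 3 VOM sham libraries at 52 h, the 3 VOM PH libraries at 52 h and the 3 VOM sham libraries at 4 days. The cell cycle, acute phase and lipid genes on the left lie higher in PH and the liver function genes on the right lower than in sham at 52 h, and for Racgap1 the 4-day sham lies nearer to PH than the 52 h sham does.

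Pericentral genes, those of the hepatocytes around the central vein, fell in 14 of 24 tested members and rose in 2, with a median of -1.38. Risers were a share near the 7.26% of all genes. Cyp2e1, the ethanol oxidase, fell from 1303, 1137 and 1193 CPM in sham to 473, 397 and 406 CPM in PH (-1.51 ± 0.24, edgeR adjusted p = 6.06e-05), but Glul, glutamine synthetase of the innermost layer, was not called, at 245, 531 and 267 and 249, 185 and 269 CPM (-0.57 ± 0.26, edgeR adjusted p = 0.109). Periportal genes, those around the portal vein, fell in 7 of 25 tested members and rose in 4, with a median of -0.18. Cyp2f2 fell from 5193, 4531 and 4956 to 1178, 525 and 1408 CPM (-2.24 ± 0.34, edgeR adjusted p = 3.00e-05) and Hsd17b6 from 808, 792 and 1127 to 160.0, 59.5 and 164 CPM (-2.84 ± 0.32, edgeR adjusted p = 6.71e-07). Apoa4, an apolipoprotein of lipid export, rose from 235, 325 and 356 to 1115, 2913 and 1911 CPM (2.70 ± 0.33, edgeR adjusted p = 1.75e-06). With the 4-day sham the counts were 11 lower and 0 higher for the pericentral and 11 lower and 1 higher for the periportal list. The pericentral list shares members with the xenobiotic list.

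Sex-biased liver genes, which growth hormone patterns in adult mice, fell in 9 and rose in 2 of 39 male-biased members and fell in 12 and rose in 7 of 35 female-biased members. Male-biased risers were a share below the 7.26% of all genes. Hsd3b5, a male steroid reductase, fell from 104, 71.7 and 114 to 4.46, 0.901 and 0 CPM (-5.73 ± 0.80, edgeR adjusted p = 1.81e-05), and Keg1, a glycine acyltransferase gene, from 615, 251 and 535 to 29.3, 12.6 and 16.04 CPM (-4.62 ± 0.40, edgeR adjusted p = 1.13e-08). The male urinary protein gene Mup3 was not called (-0.65 ± 0.28, edgeR adjusted p = 0.0864). Among the female-biased members Sult1e1, the oestrogen sulfotransferase, was at 1.01, 0 and 0 CPM in sham and 3.19, 3.604 and 5.35 CPM in PH, a ratio of 11.6 (95% counting interval 2.82 to 103), and Cyp17a1 rose from 30.7, 53.4 and 19.1 to 327, 91.9 and 199 CPM. Cyp2b9 fell from 19.6, 44.9 and 27.5 to 0, 2.70 and 3.05 CPM and was not called against the 4-day sham (-1.88). Of the 12 female-biased members that were lower 3 were extreme genes, Cyp2a4, Cyp2b10 and Cyp3a16.

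Genes of the urea cycle and amino acid catabolism fell in 16 and rose in 5 of 58 tested members. The share that rose was near the 7.26% of all genes. Otc, the mitochondrial urea cycle enzyme, fell from 2254, 1748 and 1892 CPM in sham to 353, 182 and 349.8 CPM in PH (log2 fold change -2.74 ± 0.23, edgeR adjusted p = 6.92e-09). Prodh2, an enzyme of hydroxyproline breakdown, fell from 137, 214 and 189 to 54.8, 12.6 and 37.4 CPM (-2.40 ± 0.31, edgeR adjusted p = 3.74e-06). Both fell against the 4-day sham too. Cps1, which supplies the urea cycle with carbamoyl phosphate, was at 601, 422 and 342 and 389, 431 and 382 CPM and was not called (-0.18 ± 0.19, edgeR adjusted p = 0.518), while against the 4-day sham it was lower (-1.88). The 5 risers, Got1, Gpt2, Arg1, Mat1a and Sdsl, were not called higher against the 4-day sham, Arg1 and Mat1a were not called without PH library 2, and Got1, an aspartate transaminase, was called in opposite directions (1.65 ± 0.30 and -1.65).

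In glucose metabolism 6 of 35 tested members rose and 6 fell. The glycogen genes Pygl and Gbe1, the phosphorylase and the branching enzyme, fell from 425, 309 and 367 to 99.4, 54.1 and 74.8 CPM and from 267, 245 and 214 to 103, 89.2 and 94.7 CPM (-2.28 ± 0.19 and -1.34 ± 0.14, edgeR adjusted p = 6.87e-09 and 2.11e-07). Both fell against the 4-day sham as well (-1.75 and -1.75). The risers were Pkm (1.59), Hk1 (1.77), Pgd (1.34), Gapdh (1.29), Fbp1 (1.35) and Ppargc1a (1.08), a coactivator of gluconeogenesis, and 0 of the 6 were called higher against the 4-day sham. Without PH library 2 Hk1, Gapdh and Ppargc1a lost their call, and Ppargc1a also without PH library 3 or sham library 3. Pck1, the gluconeogenic carboxykinase, was at 888, 706 and 793 CPM in sham and 609, 1312 and 953 CPM in PH (0.27 ± 0.23, edgeR adjusted p = 0.426).

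Genes that define the hepatocyte were called lower at a share near the 8.23% of all genes. Their median log2 fold change was -0.32, and 23 of 43 tested members did not overlap between groups, against 44.8% of all genes. Of 43 identity and plasma protein genes 0 rose and 3 fell, namely Cebpa (-1.32 ± 0.23, edgeR adjusted p = 0.000173), a transcription factor that restrains proliferation, the corticosteroid-binding globulin Serpina6 (-4.10 ± 0.41, edgeR adjusted p = 1.24e-07) and Ttc36 (-1.11 ± 0.18, edgeR adjusted p = 5.68e-05), whose call was lost without PH library 2. Serpina6 went from 377, 304 and 360.1 CPM in sham to 22.9, 13.5 and 25.96 CPM in PH. Alb, albumin, measured 6023, 5025 and 6648 CPM in sham and 3923, 4628 and 5295 CPM in PH (-0.35 ± 0.20, edgeR adjusted p = 0.212), and the transcription factor Hnf4a 335, 324 and 376 and 311, 355 and 313 CPM (-0.08 ± 0.13, edgeR adjusted p = 0.691). All 6 libraries thus held both of these hepatocyte markers, at levels that overlapped between the groups.

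Ribosome biogenesis genes rose in 7 of 39 members and fell in 0, for example Ddx21 from 32.7, 29.97 and 27.1 to 52.3, 82.9 and 63.4 CPM (1.16 ± 0.17, edgeR adjusted p = 2.52e-05), but Npm1 and Ncl were not called, and of the 7 none was called against the 4-day sham. The Ddx21 call was lost without PH library 2. Of 27 genes of ER stress and protein folding 3 rose, Atf5 (1.06) and Asns (1.70) among them, and Sdf2l1 and Ddit3 fell (-1.37 and -1.12). Both shares were near those over all genes, 7.26% higher and 8.23% lower. The Atf5 call was lost without PH library 1 or sham library 1, and the Asns call without PH library 3 or sham library 2 or 3. Ddit3, the stress factor CHOP, was higher against the 4-day sham (1.53), and its decrease at 52 h was not called without PH library 2 or sham library 2. The chaperone Hspa5 was at 1934, 1870.3 and 1976 and 1238, 1602 and 1478 CPM (-0.42 ± 0.24, edgeR adjusted p = 0.198). Of 25 interferon response genes 6 fell and 1 rose. Bst2 (tetherin) fell from 70.0, 63.8 and 70.8 to 17.2, 10.8 and 16.04 CPM (-2.25 ± 0.22, edgeR adjusted p = 1.07e-07) and Ifit1 from 23.7, 13.7 and 24.6 to 8.29, 4.96 and 3.82 CPM (-1.87 ± 0.28, edgeR adjusted p = 2.55e-05), both also against the 4-day sham. Of 21 clock genes Nr1d1, Per3 and Usp2 fell (-1.05, -1.33 and -2.26) and Cry1 rose (1.197). Over all genes 8.23% were lower and 7.26% higher. The Cry1 call was lost without PH library 2, and the Nr1d1 call without PH library 2 or sham library 1 or 2. All 4 genes were called in the same direction against the 4-day sham, where 10 clock genes were lower and 3 higher.

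Transcripts of other liver cells moved with the groups. Macrophage markers rose in 12 of 16 tested members and fell in 0, and their summed level was 1095 to 1698 CPM in PH libraries and 539.5 to 801 CPM in sham libraries. Marco, a scavenger receptor, rose from 10.6, 13.7 and 6.66 to 22.3, 105 and 47.3 CPM (2.58 ± 0.51, edgeR adjusted p = 0.00057) and C1qb, a complement chain, from 196, 168 and 123 to 405, 317 and 283 CPM (1.05 ± 0.33, edgeR adjusted p = 0.0205), a call lost without PH library 1 or sham library 3. Clec4f (0.37 ± 0.43, edgeR adjusted p = 0.571) and Cd5l (0.50 ± 0.27, edgeR adjusted p = 0.184) were among the 4 members not called. Against the 4-day sham 1 macrophage marker, Marco, was called, and the list median was -0.19 against 1.19 with the 52 h sham.

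Endothelial markers rose in 5 of 17 members, with summed levels of 852 to 1109 CPM in PH and 652 to 744 CPM in sham. Aqp1, a water channel, rose from 61.5, 47.6 and 61.2 to 119, 252 and 166 CPM (1.66 ± 0.19, edgeR adjusted p = 6.99e-07), while Clec4g, a lectin of liver sinusoids, did not move past the test (0.08 ± 0.14, edgeR adjusted p = 0.743). Against the 4-day sham 0 endothelial markers were higher and 2 lower, and Aqp1 was not called (0.60). Stellate cell and fibroblast markers rose in 5 of 14 members, with summed levels of 451 to 669.9 CPM in PH and 259 to 375 CPM in sham. Col3a1, a fibrillar collagen, rose from 28.7, 15.6 and 21.6 to 45.3, 197 and 108 CPM (2.41 ± 0.42, edgeR adjusted p = 0.000141) and was called against the 4-day sham (1.28). Of the other lists the table held few members: 3 of 12 cholangiocyte, 3 of 18 lymphocyte and 1 of 12 neutrophil markers, none of them called, with summed levels of 141 to 283 CPM in PH and 79.1 to 158 CPM in sham for the first, 115 to 168 CPM in PH and 76.2 to 174 CPM in sham for the second and 0 to 7.65 CPM in PH and 2.08 to 4.56 CPM in sham for the last. Of 5 red cell markers Alas2, the haem synthesis enzyme of red cell precursors, fell (-2.87 ± 0.24, edgeR adjusted p = 8.18e-09). It was not called against the 4-day sham (-0.54). The other 4 were not called against the 52 h sham, and the list median was 1.14. In such preparations fewer cells of a type and less RNA per cell cannot be told apart. The macrophage, endothelial and stellate cell lists moved with the same groups as the results above, Cd14 and Fabp4 among them, and their part in those results was not tested. Without PH library 1 the macrophage list held 3 risers.

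The PH effect in VOM was set against that of YM, VOF and VOM at 4 days by testing the difference of log2 fold changes. From YM it differed in 1411 genes (12.8% of those tested), higher in 561 (5.08%) and lower in 850 (7.69%). From VOF it differed in 1183 (10.7%), 510 higher (4.62%) and 673 lower (6.09%), and from VOM at 4 days in 1408 (12.7%), 537 higher (4.86%) and 871 lower (7.88%). With the 4-day sham in place of the 52 h sham these counts were 961, 757 and 1656. In the last of these the same sham libraries enter both effects and cancel, so that it compares PH libraries at 52 h with PH libraries at 4 days, and it is not used below. A covariate for the mix left 619, 483 and 624. PH itself changed 1086 genes in YM (9.83%; 6.05% higher and 3.78% lower), 691 in VOF (6.26%; 3.21% higher and 3.04% lower) and 774 in VOM at 4 days (7.01%; 4.75% higher and 2.25% lower).

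The mitotic list differed in each comparison. It rose in 73 of 76 members in YM, 66 in VOF and 41 in VOM at 4 days, against 27 in VOM at 52 h. The VOM effect at 52 h was lower than that of YM in 34 members and higher in 0, lower than that of VOF in 24 and higher in 0, and lower than that at 4 days in 21 and higher in 1. With the 4-day sham in place of the 52 h sham, 15 members were lower than in YM (0 higher) and 4 lower than in VOF (2 higher). Both the PH and the sham means stood apart from those of the other groups. Cdk1 stood at 84.8 ± 34.1 CPM (SD, n = 3) in VOM PH, against 263 ± 59.0 in YM PH, 199.9 ± 64.7 in VOF PH and 176 ± 67.1 in VOM PH at 4 days. In sham it stood at 33.1 ± 6.68 CPM in VOM, 4.31 ± 1.65 in YM, 11.1 ± 5.33 in VOF and 7.63 ± 1.65 in VOM at 4 days. VOM thus had the lowest mean PH level and the highest mean sham level, and the difference of log2 fold changes between VOM and YM was -4.42 ± 0.58 (edgeR adjusted p = 2.24e-05).

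Mki67 gave 61.6 ± 28.8 CPM in VOM PH and 106 ± 12.9 in YM PH, but 17.8 ± 5.41 in VOM sham and 2.36 ± 1.03 in YM sham, a difference in effect of -3.66 ± 0.67 (edgeR adjusted p = 0.000731). Pcna, which was not called in VOM, rose in YM from 30.7 ± 6.84 to 91.0 ± 22.6 CPM, and the effects differed by -1.56 ± 0.25 (edgeR adjusted p = 0.000234). Not all replication genes did: Mcm5 and Ccne1 were not called as different in any of the 3 comparisons, and Ccne1 stood at 16.3 ± 1.16 CPM in VOM PH against 2.96 ± 1.004 in YM PH. Of the G1/S list 23 members had a lower effect in VOM than in YM and 0 a higher one, and with the 4-day sham 7 and 0. Cdkn1a rose in all 4 comparisons, by 3.23 ± 0.40 in YM, 3.58 ± 0.36 in VOF and 2.90 ± 0.35 in VOM at 4 days, and none of the 3 differences was called.

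Xenobiotic enzymes differed in each comparison. Of the 77 xenobiotic enzymes 44 had a lower effect than in YM, 42 than in VOF and 44 than in VOM at 4 days, while PH lowered 9, 4 and 6 of them in those groups. With the 4-day sham the lower effects numbered 38 against YM and 32 against VOF. Cyp1a2 stood at 88.2 ± 32.8 CPM in VOM PH at 52 h, against 1375 ± 563 in YM PH, 1248 ± 154 in VOF PH and 891 ± 34.1 in VOM PH at 4 days. Its sham levels were 878 ± 126, 1193 ± 390.2, 788 ± 241 and 1110.4 ± 218 CPM, and the effect differed from that in YM by -3.53 ± 0.43 (edgeR adjusted p = 9.29e-06). Otc stood at 295 ± 97.9 CPM in VOM PH and at 1134 ± 232, 1275 ± 196 and 1261 ± 153 in the other PH groups in that order, with sham means between 1766 ± 136 and 1965 ± 261 CPM. For both genes the low value was that of the VOM PH libraries at 52 h.

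Acute phase and fatty acid oxidation genes more often had a higher than a lower effect. Of 32 acute phase members 13 had a higher effect in VOM than in YM and 0 a lower one, 10 a higher and 1 a lower one than in VOF, and 8 a higher and 3 a lower one than in VOM at 4 days. With the 4-day sham 15 were higher than in YM and 12 higher than in VOF, with 0 lower in either. With the mix as a covariate 14 were higher than in YM (0 lower), 4 than in VOF (2 lower) and 1 than in VOM at 4 days (1 lower). Apcs stood at 911 ± 97.2 CPM in VOM PH against 277 ± 90.6 in YM PH, with sham means of 183 ± 49.4 and 182 ± 118 CPM, and the effects differed by 1.73 ± 0.47 (edgeR adjusted p = 0.0167). For Saa1 the sham means were unlike, at 2130.0 ± 1161 CPM in VOM and 4995 ± 2164 in YM, while PH levels were 6614 ± 1289 and 4327 ± 1669 CPM. Of 44 fatty acid oxidation members 11, 10 and 12 had a higher effect than in YM, VOF and VOM at 4 days. Cidec stood at 26.1 ± 12.7 CPM in VOM PH and at 1.17 ± 0.384, 0.913 ± 1.58 and 2.83 ± 0.649 in the other PH groups, and Acot2 at 19.4 ± 2.80 CPM against 1.96 ± 0.522, 4.65 ± 0.480 and 2.94 ± 1.75. Both were higher in VOM PH at 52 h than in every other group, and the effect differed in all 3 comparisons.

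The VOM libraries of 52 h and 4 days share no mix, so time and mix cannot be told apart between them. Interferon response genes differed between these times. Their effect in VOM at 52 h was lower than at 4 days in 17 of 25 members and higher in 0, and at 4 days PH raised 19 of them. Ifit1, an interferon-induced RNA-binding protein, stood at 5.69 ± 2.32 CPM in VOM PH at 52 h and 704 ± 123 at 4 days, against 20.6 ± 6.04 and 37.2 ± 7.81 in the sham groups (difference -6.08 ± 0.34, edgeR adjusted p = 2.72e-11). The PH means lay much further apart than the sham means.

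**Figure D5:**
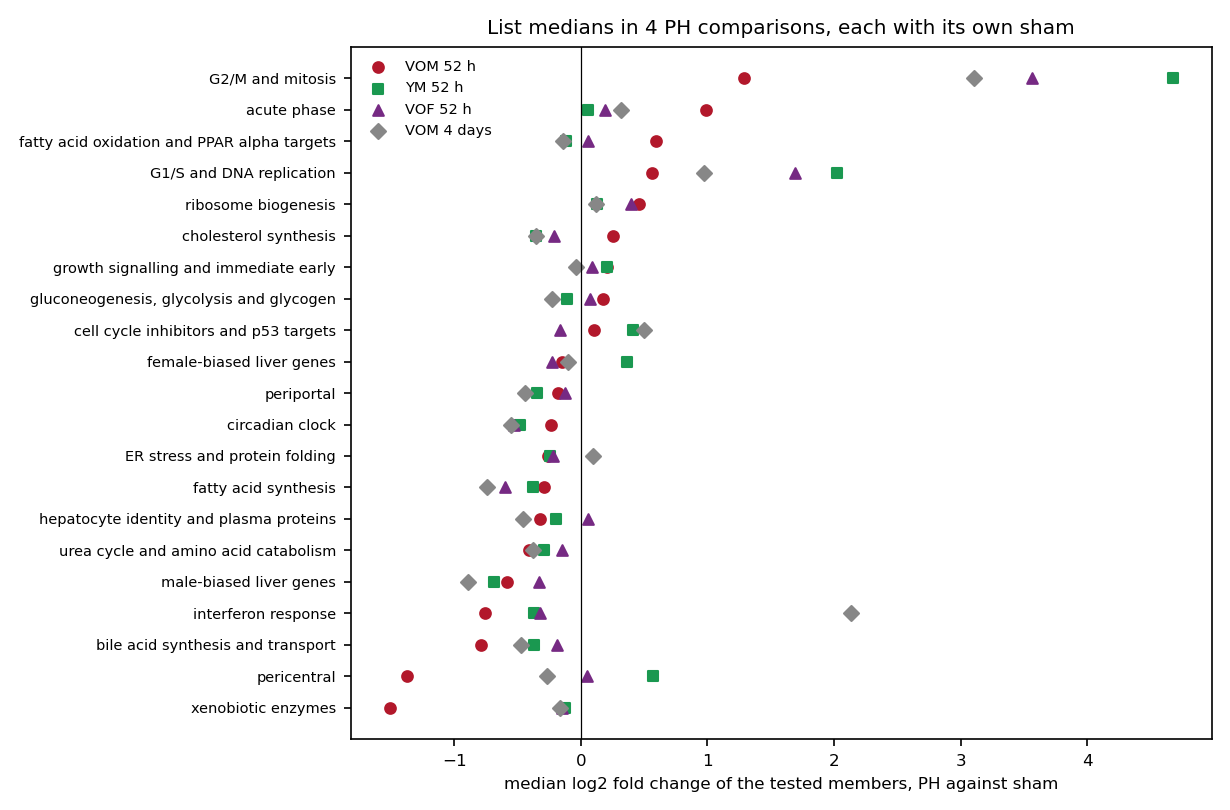
Median log2 fold change of the tested members of each gene list in PH against the sham group of the same age, sex and time, for VOM at 52 h, YM at 52 h, VOF at 52 h and VOM at 4 days. The G2/M list has medians of 1.29, 4.68, 3.56 and 3.11 in that order, and the xenobiotic enzymes of -1.51, -0.12, -0.15 and -0.16.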

How the data were processed

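Hepatocyte RNA was counted by CEL-seq2. The authors deposited expected counts per gene for 133 libraries and 11049 genes: UMI counts corrected for UMIs used more than once, then adjusted between batches with ComBat-Seq and not scaled to library size. That adjustment used sham libraries as its link between batches, so differences between batches are modelled values. The submitters' processing notes name bcl2fastq 2.20 and GRCh38, whereas the study's methods name the mouse build GRCm38. Values that were not whole (30966, in 448 genes) were rounded.

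Depth was 1207501 to 5311112 counts in the 6 libraries, and intervals cover counting error only. These intervals take the batch-adjusted counts as counted molecules and leave out the uncertainty of that adjustment. Replicates differed by more than sampling noise (chi-square over degrees of freedom 3.97 to 10.7), so none was counted as a duplicate. Genes at 0.5 CPM or more in at least 1 library were tested with edgeR 4.0.16 (quasi-likelihood, TMM) in 1 fit of 24 libraries in 8 groups, with Benjamini-Hochberg adjustment, and were called at an adjusted p below 0.1 and a change of 2-fold or more. CPM values carry the TMM factors. Named genes were the 12 largest called changes in each direction (non-overlapping groups, mean of at least 10 counts; repeated without the extreme genes), up to 5 called members per direction and 2 uncalled members of each list, the 5 largest called differences per direction and comparison, a fixed set of cell cycle and liver genes, and the 3 most abundant markers per cell type. Aurka, Birc5, Ccna2, Cps1, Cpt1a, Cyp2c29, E2f1, Hspa5, Kif20a, Lcn2, Marco, Mcm2, Mcm3, Mcm6, Mt1, Mup3, Ncl, Npm1, Nr1i2, Nr1i3, Plin2, Ppara, Ppargc1a, Prc1, Racgap1, Stat3 and Tpx2 fall outside it and were chosen after their values were seen. The members and lists were chosen with earlier results of these data known. On simulated counts for this comparison over 11047 genes, edgeR recovered 94 of 100 genes changed 4-fold, 35 of 100 changed 2-fold, and called 15 unchanged genes. DESeq2 1.42.0, other scaling, filters, thresholds, library sets, mix and replicate terms and leaving out each library were alternatives. Symbols and gene positions are those of GENCODE vM21 (GRCm38), where 11020 identifiers matched. Results for some genes are not reported here.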

Additional observations from a re-analysis of the deposited data

Results flagged for a closer look

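The tests of the difference between comparisons returned 1411 genes for VOM against YM at 52 h, 1183 for VOM against VOF at 52 h, and 1408 for VOM at 52 h against VOM at 4 days. The genes below had the largest differences of log2 fold changes in each direction.

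Against YM the effect in VOM was higher for Gm5915 (9.02), G530011O06Rik (7.75), E030018B13Rik (6.96), Gpcpd1 (4.85) and Cidec (4.84). It was lower for 9130409I23Rik (-23.65), Sgo2a (-20.99), Cyp2a5 (-18.64), 9030619P08Rik (-18.21) and Gm8722 (-17.68). Against VOF it was higher for the gene ENSMUSG00000097956 (10.84), Igdcc4 (5.31), Rab30 (4.37), Ube2nl (4.33) and Cidec (4.08), and lower for Sgo2a (-19.00), Cyp2a5 (-18.24), Kcna2 (-17.41), Pde4a (-17.23) and 9030619P08Rik (-16.58). Against VOM at 4 days it was higher for Sult2a1 (8.04), Fgf21 (7.51), Gm15421 (5.61), Cenpe (5.404) and Fabp4 (5.11), and lower for Sgo2a (-20.42), Cyp2a5 (-20.20), Gm8722 (-19.93), 9030619P08Rik (-19.51) and Gsta1 (-18.70). In VOM at 52 h itself, Gm5915, ENSMUSG00000097956 and Gm15421 were not called. Their log2 fold changes there were -0.23, 1.11 and 1.21 (edgeR adjusted p = 0.931, 0.64 and 0.144). The genes named here with a lower effect are among the 36 of extreme count in the VOM sham libraries at 52 h, except 9130409I23Rik, which was at 0 in every VOM PH library at 52 h, and their values are no measure of size. Fitted values of genes at 0 in a group depend on the prior count and are no bounds.

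The 2 PH libraries marked X, which entered alternative fits but none of the comparisons above, had cell cycle scores above every VOM sham library at 52 h. The G1/S score was 4.60 in the marked library of mix 20 and 4.24 in that of mix 9, and the G2/M score was 4.50 and 4.11 in the same order. The marked library of mix 9 held only 97273 counts and 7342 detected genes, so its scores are uncertain. The marked scores come from a scaling over all labelled libraries, and the sham scores from one over the unmarked libraries.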

How the results depend on the processing

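The 1711 calls at 52 h stayed within 1.5 times that count under every alternative but a threshold of adjusted p under 0.05 with no fold minimum, which gave 3184. DESeq2 called 1598. Leaving out 1 library at a time gave 1357 (without PH library 2) to 1989 (without PH library 1) for this comparison, 979 to 1613 for the difference from YM, 827 to 1437 for that from VOF and 1009 to 1643 for that from VOM at 4 days. With the mix as a covariate, in which a library alone in its mix drops out, the 3 differences fell to 619, 483 and 624 genes, and with the 4-day sham that from VOF fell to 757. Calls over the pathway lists numbered 245 and ranged from 219 to 273 when 1 library was left out. Of these calls 46.5% were higher, and 35.9% were within mix 9 with its marked library.

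The G1/S score difference of 0.28 became 0.45 with log2(CPM + 1), 0.43 as a median over genes and 0.77 against the 4-day sham, and ranged from 0.20 to 0.37 with 1 library left out. The G2/M difference of 0.40 became 0.76, 1.01 and 0.98 in the same order and ranged from 0.19 to 0.62.

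The replicate numbers did not pair the libraries: deviations from the group means correlated between same-numbered PH and sham libraries at r = 0.0026, -0.032 and 0.013. With the replicate number as a block 1660 genes were called at 52 h, and 1287, 1073 and 1309 in the 3 differences.

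Against the 4-day sham, named genes uncalled in both comparisons counted as unchanged whatever their direction, Glul (-0.57 and 0.78) among them. Of 259 named genes 164 were unchanged in this sense, and 55 lost and 14 gained a call. Another 26 turned direction with a call in at least 1 of the comparisons. The last group, with log2 fold changes against the 4-day sham, was Atad2 0.64, Sgo2a 1.64, Ckap2 0.77, Spc24 0.41, Cenpn 0.76, Cdkn2d 0.95, Atf3 0.41, Saa4 0.23, Cxcl1 0.34, Elovl5 -0.32, Cyp8b1 -1.41, Got1 -1.65, Gpt2 -0.11, Arg1 -0.68, Hk1 -0.28, Pgd -0.14, Gapdh -0.055, Sult2a1 -0.82, Cyp3a44 0.22, Sdf2l1 0.17, Ddit3 1.53, Nop58 -0.12, Gm8722 2.74, Neurl1b 3.68, Ppargc1a -0.53 and E2f1 2.195. In the difference from VOM at 4 days Cenpe turned to -0.22 with that sham, which then cancels from the difference and leaves PH against PH. With 1 library left out, G530011O06Rik ranged from -0.46 (without PH library 2) to 2.89 (without PH library 1), and Cdca2, in the difference from VOF, from -6.85 (without sham library 1) to 1.64 (without sham library 3). The 4-day sham, the removal of extreme genes and, except for the scores, the unmarked libraries of mix 9 were chosen after the data were seen, and the cause of these changes was not tested.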

Other observations

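Some genes outside the lists described stood apart in the VOM PH libraries at 52 h. Rab30, a small GTPase of the Golgi, was at 7.65, 39.2 and 22.9 CPM in those libraries and 0.504, 1.30 and 2.91 CPM in their sham libraries, and at 9.10 ± 3.59 CPM (SD, n = 3) in VOF PH. Gpcpd1, a phosphodiesterase of choline metabolism, was at 35.1, 122 and 60.3 CPM in VOM PH and 16.6, 14.3 and 14.6 CPM in sham, against 23.7 ± 2.66 CPM in YM PH. Sult2a1, a sulfotransferase of steroids and bile acids, was at 0, 1.35 and 32.8 CPM in VOM PH at 52 h and at 0 in sham, but the 4-day sham libraries held 25.4, 25.8 and 0 CPM. The PH libraries lay above all 52 h sham libraries for Rab30 and Gpcpd1, whereas the Sult2a1 level rested on PH library 3.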
